A study of Homo sapiens with 12 samples.

Results

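Genomic regions with INTS11 peaks were compared with regions with ZEB1 peaks in the human embryonic kidney line HEK293T. For each protein the peaks of its 2 deposited lists were merged where they overlapped, and a merged region was kept as reproducible where it held a peak of each list. This gave 52921 INTS11 regions and 14984 ZEB1 regions, out of 325633 regions of the 5 proteins in the series. Of the INTS11 regions, 10162 met a ZEB1 region by 1 bp or more and 42759 met none. Of the ZEB1 regions, 13432 met an INTS11 region and 1552 met none.

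The cells were wild type, fixed in 1% formaldehyde for 5 min, and chromatin was immunoprecipitated with 1 commercial antibody for each protein. There were 2 INTS11 libraries and 2 ZEB1 libraries, and 4 of the 12 libraries of the series therefore enter the main comparison. Lists of INTS13, HDGF and ZNF609 serve as the background, and the input libraries were not used here. The study asked whether Integrator and transcription factors that interact with it lie at the same loci. The labels do not say whether replicates are separate cultures, and their spread may be technical only.

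Integrator is a large complex that attends RNA polymerase II, processes the 3′ ends of small nuclear RNAs and ends transcription early at many protein-coding genes. INTS11 is its endonuclease and belongs to the same family as the nuclease that cleaves messenger RNA precursors for polyadenylation. ZEB1 is a zinc finger and homeodomain factor that binds E-box-like sequences, recruits corepressors such as CtBP, and is best known for silencing epithelial genes such as the E-cadherin gene.

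Peaks of the series crowd into broad stretches of the genome, so results are given for the whole genome and outside bins dense in peaks. Each 1-Mb bin was scored in each of the 10 lists by its number of peaks over that of the average bin, and bins with a median score above 2 are called dense. There were 382 dense bins among 3043. The score counts peaks and not the bases they cover, so some very wide regions lie outside dense bins. Among them are the widest ZEB1 region, 217440 bp on chromosome 13, and wide regions around TLE4 on chromosome 9. They held 56.1% and 74.97% of the peaks of INTS11 replicates 1 and 2, and 84.8% and 85.3% of those of ZEB1 replicates 1 and 2. The INTS11 lists held 195303 and 106144 peaks on chromosomes 1 to 22 and X, and the ZEB1 lists held 52336 and 45291. INTS11 peaks covered 169 and 95.1 Mb, and ZEB1 peaks covered 42.3 and 36.2 Mb. No read totals come with the lists, so depth is unknown.

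The promoters of 6 genes are shown because they are the ones outside dense bins where regions of both proteins met the promoter itself. Each is 300 bases from RefSeq on GRCh38.p14, from 250 bases before to 50 after the start, written 5′ to 3′ on the strand of the gene. Capitals mark CACCTG or CAGGTG, the same 6 letters read on either strand, which ZEB1 zinc fingers are known to bind. They lie at chr9:79571715-79572014 on the + strand (TLE4), chr10:46556367-46556666 on the - strand (GPRIN2), chr16:31032845-31033144 on the + strand (STX4), chr2:241508296-241508595 on the - strand (STK25), chr1:35079135-35079434 on the + strand (ZMYM1) and chr14:104986029-104986328 on the + strand (CLBA1).
TLE4: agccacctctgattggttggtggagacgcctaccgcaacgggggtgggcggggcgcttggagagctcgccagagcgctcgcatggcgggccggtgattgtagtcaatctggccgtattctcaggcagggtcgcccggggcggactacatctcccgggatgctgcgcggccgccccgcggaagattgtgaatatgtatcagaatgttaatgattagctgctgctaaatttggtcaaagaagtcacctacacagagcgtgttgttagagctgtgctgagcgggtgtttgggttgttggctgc
GPRIN2: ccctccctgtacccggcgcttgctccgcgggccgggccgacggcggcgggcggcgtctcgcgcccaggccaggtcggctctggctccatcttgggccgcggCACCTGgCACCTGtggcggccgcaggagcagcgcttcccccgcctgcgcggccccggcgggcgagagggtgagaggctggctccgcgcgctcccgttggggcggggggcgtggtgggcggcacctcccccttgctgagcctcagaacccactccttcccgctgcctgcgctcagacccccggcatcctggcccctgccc
STX4: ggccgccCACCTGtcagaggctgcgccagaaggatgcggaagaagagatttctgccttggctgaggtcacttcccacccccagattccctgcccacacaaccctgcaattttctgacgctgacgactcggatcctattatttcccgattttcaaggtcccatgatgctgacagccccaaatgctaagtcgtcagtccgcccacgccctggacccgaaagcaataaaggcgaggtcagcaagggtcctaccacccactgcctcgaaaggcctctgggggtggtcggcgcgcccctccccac
STK25: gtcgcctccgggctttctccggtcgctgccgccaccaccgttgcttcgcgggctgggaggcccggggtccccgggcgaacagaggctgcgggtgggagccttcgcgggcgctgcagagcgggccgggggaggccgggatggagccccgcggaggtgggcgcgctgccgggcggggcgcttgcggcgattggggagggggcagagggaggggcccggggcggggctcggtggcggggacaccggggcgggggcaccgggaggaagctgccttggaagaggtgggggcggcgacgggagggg
ZMYM1: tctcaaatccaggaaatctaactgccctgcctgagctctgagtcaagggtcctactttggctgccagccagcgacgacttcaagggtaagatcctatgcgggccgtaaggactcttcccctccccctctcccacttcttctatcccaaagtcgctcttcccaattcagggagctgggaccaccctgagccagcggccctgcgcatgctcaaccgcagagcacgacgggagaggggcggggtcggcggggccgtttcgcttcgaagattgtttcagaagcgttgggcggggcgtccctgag
CLBA1: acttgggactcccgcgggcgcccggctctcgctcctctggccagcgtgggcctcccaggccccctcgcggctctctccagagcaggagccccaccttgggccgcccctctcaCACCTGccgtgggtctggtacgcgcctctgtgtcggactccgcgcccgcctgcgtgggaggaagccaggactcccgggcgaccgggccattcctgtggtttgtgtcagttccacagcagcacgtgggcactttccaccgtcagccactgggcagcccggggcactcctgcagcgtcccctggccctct
The GPRIN2 promoter held the motif 2 times, the STX4 and CLBA1 promoters 1 time each, and the TLE4, STK25 and ZMYM1 promoters did not hold these letters. Over all 34961 promoters in the table, 20.6% held the motif. The share was 24.7% of 547 promoters that met regions of both proteins, 20.2% of 2674 that met INTS11 alone, and 22.2% of 45 that met ZEB1 alone. Promoters in dense bins held it in 21.1%. These shares are descriptions of 300-base windows, and mean GC content was 59.0% in promoters with both proteins, 61.2% with INTS11 alone and 57.6% over all promoters.

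Most reproducible ZEB1 regions lay where INTS11 also had a region, while most INTS11 regions had no ZEB1. INTS11 regions with ZEB1 made up 19.2% of all INTS11 regions, and ZEB1 regions with INTS11 made up 89.6% of all ZEB1 regions. Without INTS11 replicate 1 the INTS11 share was 12.99%, and without INTS11 replicate 2 it was 7.23%. Without ZEB1 replicate 1 it was 34.2%, and without ZEB1 replicate 2 it was 39.1%. The ZEB1 share was 89.5% without INTS11 replicate 1 and 93.8% without INTS11 replicate 2. It fell to 62.5% without ZEB1 replicate 1 and to 61.3% without ZEB1 replicate 2. Leaving out a list turns every merged peak of the other list into a region, so the number of regions changes with it. The regions of both proteins shared 25.9 Mb, which was 24.1% of the 107 Mb of INTS11 regions and 89.0% of the 29.1 Mb of ZEB1 regions.

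The same share over single lists was lower for ZEB1. INTS11 peaks met by a ZEB1 peak made up 16.1%, 13.6%, 25.1% and 21.9% over the 4 pairs of libraries (19.2% ± 5.27, SD). ZEB1 peaks met by an INTS11 peak made up 72.4%, 59.7%, 71.3% and 61.8% (66.3% ± 6.47). A ZEB1 peak was met by an INTS11 peak more often than by a peak of the other ZEB1 list, which met 32.7% of replicate 1 peaks and 39.0% of replicate 2 peaks. INTS11 lists are longer, and their own replicates met at 31.4% and 61.7% of peaks.

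Other proteins of the series give the background for these shares. INTS11 met 21.1% of INTS13 regions, 44.3% of HDGF regions and 90.5% of ZNF609 regions. ZEB1 met 5.997% of INTS13 regions, 18.6% of HDGF regions and 57.8% of ZNF609 regions. Conversely, ZEB1 regions were met by INTS13 at 90.7%, by HDGF at 47.1% and by ZNF609 at 39.4%. The 89.6% for INTS11 is thus close to the 90.7% for INTS13, whose lists are the longest of the series. That closeness did not hold outside dense bins. Of the 349 ZEB1 regions there, INTS11 met 46.4% and INTS13 met 82.5%.

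Outside dense bins the overlap was smaller in both directions. There, 152 of 7291 INTS11 regions met ZEB1 (2.08%), and 162 of 349 ZEB1 regions met INTS11 (46.4%). In dense bins the shares were 21.9% of 45630 INTS11 regions and 90.7% of 14635 ZEB1 regions. The 349 ZEB1 regions outside dense bins lay in 176 different bins, and 179 of them were in a bin next to a dense one. With those also left out, 82 of 170 ZEB1 regions met INTS11 (48.2%). On chromosome 9 between 79 and 80 Mb there were 13 ZEB1 regions, all with INTS11, and 9 of them were 5 kb or wider.

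ZEB1 regions mostly sat inside INTS11 regions. Of the shared INTS11 regions, 632 lay wholly within a ZEB1 region (6.22%), and of the shared ZEB1 regions, 8441 lay wholly within an INTS11 region (62.8%). An INTS11 region often spanned several ZEB1 regions: 2549 shared INTS11 regions held 2 or more (25.1%), with 23 at most. For ZEB1 regions, 1350 met 2 or more INTS11 regions (10.1%), with 5 at most.

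Regions that lacked the other reproducible protein often had a peak of it in a single list. Among the 42759 INTS11 regions without ZEB1, 8494 had a peak of ZEB1 replicate 1 only and 5963 of replicate 2 only, while 26006 had no ZEB1 peak at all (60.8%). Among the 1552 ZEB1 regions without INTS11, 715 had a peak of INTS11 replicate 1 only and 338 of replicate 2 only, while 421 had none (27.1%). Outside dense bins, 6159 of 7139 INTS11 regions without ZEB1 had no ZEB1 peak (86.3%), and 77 of 187 ZEB1 regions without INTS11 had no INTS11 peak (41.2%). The nearest ZEB1 region lay a median of 25736 bp from an INTS11 region without ZEB1. The nearest INTS11 region lay a median of 1271.5 bp from a ZEB1 region without INTS11, and 43.2% of those had it within 1 kb.

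Shared regions were wider than unshared ones in both proteins. INTS11 regions had a median width of 2801.5 bp with ZEB1 and 1135 bp without, a ratio of 2.47. ZEB1 regions had a median width of 1302 bp with INTS11 and 791 bp without, a ratio of 1.65. Outside dense bins the medians were 1988.5 and 848 bp for INTS11 regions with and without ZEB1 (ratio 2.34), and 1162.5 and 710 bp for ZEB1 regions with and without INTS11 (ratio 1.64). Very wide regions were nearly all shared: 875 INTS11 regions with ZEB1 spanned 10 kb or more, against 14 without, and the counts for ZEB1 regions were 238 with INTS11 and 0 without. A wide region has more bases in which to meet another, and the part of this in the shares was not tested.

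**Figure D1:**
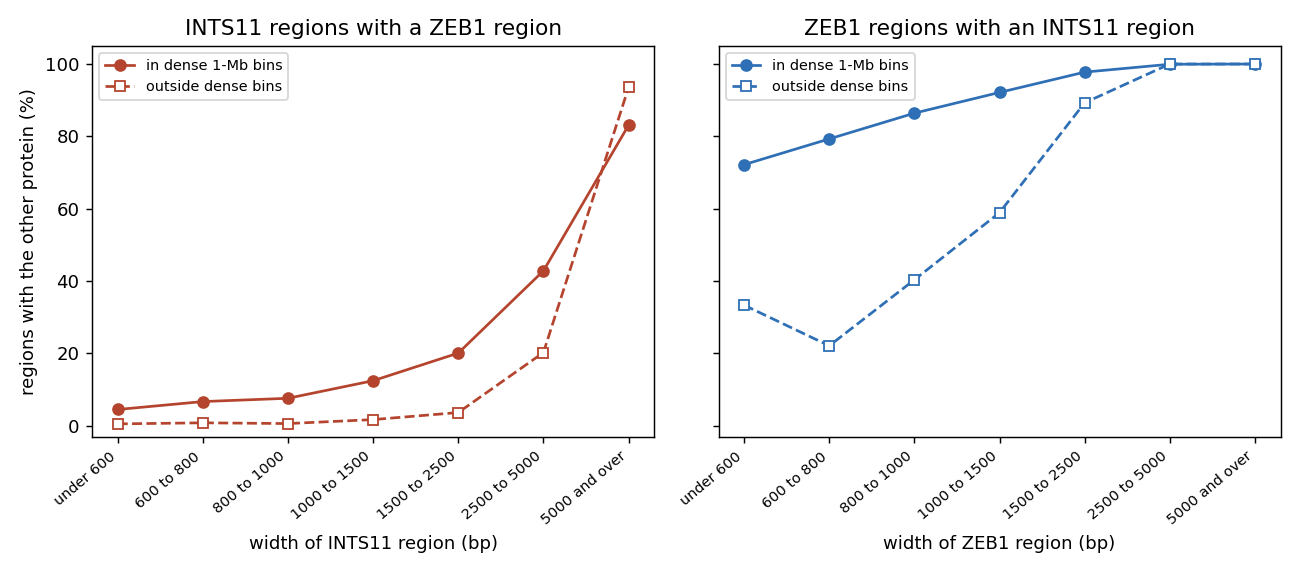
Share of regions that meet a region of the other protein (y axis, %) by width of the region in bp (x axis), for INTS11 regions on the left and ZEB1 regions on the right; filled points are regions in dense bins and open points regions outside them. Outside dense bins the INTS11 share stays at 3.65% or less up to 2500 bp and reaches 93.5% at 5 kb and over, and the ZEB1 share is 33.3% under 600 bp, 22.1% at 600 to 800 bp and 100% at 2500 bp and over.

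Over the whole genome the share climbed with width. Of INTS11 regions under 600 bp, 3.28% met ZEB1, and of those of 5 kb or more, 83.2% did. Of ZEB1 regions under 600 bp, 69.6% met INTS11, and all 618 of 5 kb or more did. The step outside dense bins was steeper, and its widest classes were thin, with 31 INTS11 regions and 15 ZEB1 regions of 5 kb or more. Of those 15 ZEB1 regions, 9 lay on chromosome 9 between 79 and 80 Mb and 2 on chromosome 13 between 61 and 62 Mb. The step at the widest ZEB1 regions therefore rests mostly on these stretches.

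Single peaks of the lists had similar widths. Median peak width was 555 and 552 bp in the INTS11 lists and 529 and 524 bp in the ZEB1 lists. The means were 553.5 ± 2.12 bp for INTS11 and 526.5 ± 3.54 bp for ZEB1 (SD, n = 2 each), a difference of 27 bp, and the values of the proteins did not overlap. A two-sided exact permutation test gave p = 0.333, the smallest p that 2 libraries against 2 can give. With the 10000 peaks of highest -log10 p in each list the difference was 1120.5 bp, and with peaks of -log10 q of 5 or more it was 71.25 bp with exact p = 1.

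Peaks in shared regions ranked higher within their own list. The fold of a peak is the authors' ratio of its summit to the caller's background, and it was turned into a percentile of its list. In INTS11 replicate 1 the median percentile was 91.6 in regions with ZEB1, 66.2 in regions without and 37.6 for peaks in no reproducible region. In INTS11 replicate 2 these were 85.8, 52.3 and 30.2. The difference between regions with and without ZEB1 was 29.4 ± 5.71 points (SD, n = 2 lists). Without INTS11 replicate 1 it was 44.2 points and without INTS11 replicate 2 it was 45.1 points.

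ZEB1 peaks also ranked highest in shared regions. In ZEB1 replicate 1 the median percentile was 68.4 in regions with INTS11, 43.6 in regions without and 43.6 in no reproducible region. In ZEB1 replicate 2 these were 73.9, 49.7 and 34.0. The difference between regions with and without INTS11 was 24.5 ± 0.413 points (SD, n = 2 lists). That SD understates the uncertainty, because folds are stepped: each ZEB1 list has only 44 different folds, and its commonest fold holds 14.5% of the peaks in replicate 1 and 16.3% in replicate 2. Both lists differ by 2 steps of fold between the classes, so the median could not have taken a value close by. Mean percentiles, which move more finely and were added after the ties were seen, differed by 23.05 ± 1.44 points for INTS11 and 19.4 ± 0.335 points for ZEB1.

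**Figure D2:**
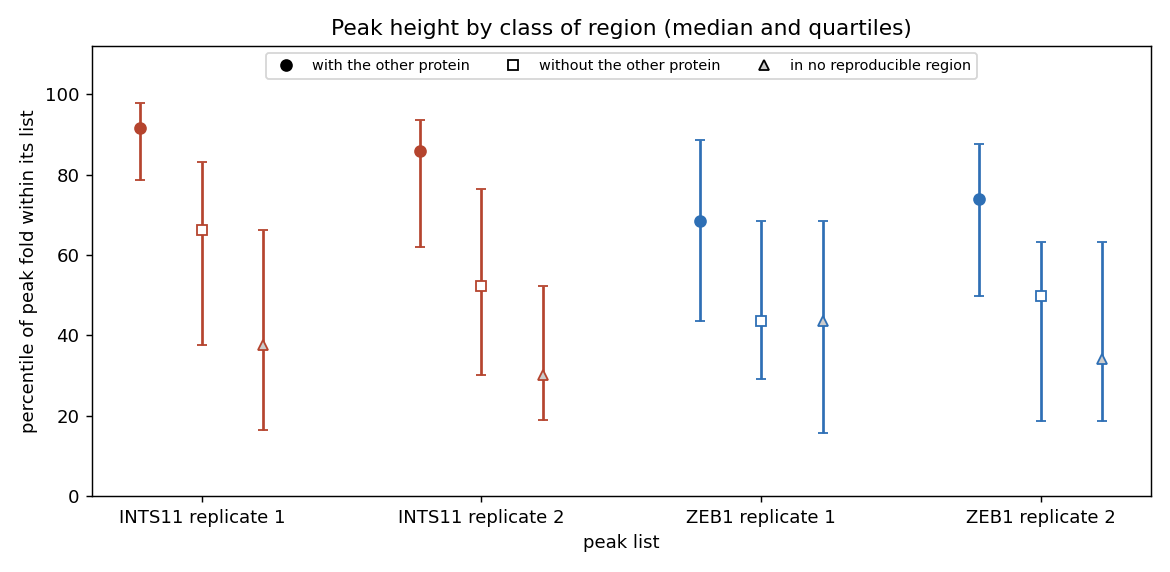
Percentile of peak fold within its own list (y axis) for the 4 peak lists (x axis), with median and lower and upper quartiles over peaks in regions with the other protein (filled circles), in regions without it (open squares) and in no reproducible region (triangles). In all 4 lists the median is highest with the other protein, between 68.4 and 91.6.

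The step in rank was smaller among peaks of like width. Among peaks of 400 to 600 bp the difference was 14.4 ± 5.16 points for INTS11 with and without ZEB1, and 14.6 ± 1.55 points for ZEB1 with and without INTS11. Ranked into 4 quartiles of mean percentile, INTS11 regions met ZEB1 in 2.92%, 6.65%, 14.7% and 52.0% from the lowest to the highest. ZEB1 regions met INTS11 in 77.7%, 88.1%, 94.1% and 98.3%. Outside dense bins the ZEB1 shares were 25.3%, 49.3%, 68.5% and 95.8%, and the INTS11 shares were 0.397%, 1.03%, 2.95% and 27.5%. Across shared regions the height ranks of an INTS11 list and a ZEB1 list had a Spearman rho between 0.342 and 0.383, against 0.583 between the INTS11 lists and 0.307 between the ZEB1 lists. These are correlations across regions, which share libraries and width, and they are given as a description.

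Over all shared regions, the median distance between summits of the proteins was larger than that between summits of replicates. The median distance between the highest INTS11 and the highest ZEB1 summit was 1072, 1084, 1121 and 1133 bp in the 4 pairs of libraries (mean 1102.5 ± 29.1 bp, SD). Between the INTS11 replicates it was 631 bp, and between the ZEB1 replicates 375 bp. Each INTS11 region gave 1 summit per list to all ZEB1 regions matched to it. Of the shared INTS11 regions, 25.1% held 2 or more ZEB1 regions. Replicate distances stayed within 1 region of the protein, so the distances are unlike measures, and the part of this in the gap was not tested. Without INTS11 replicate 1 the mean was 624.5 bp and without INTS11 replicate 2 it was 678.5 bp. In the 411 shared regions under 1 kb in both proteins, the 4 medians were 178, 195, 228 and 201 bp (mean 200.5 ± 20.8 bp). Replicates of INTS11 stood 158 bp apart there and replicates of ZEB1 207 bp, so 3 of the 4 medians between the proteins were below that of the ZEB1 replicates. Distances there are limited by the widths of the regions, whose medians were 774 bp for INTS11 and 749 bp for ZEB1.

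**Figure D3:**
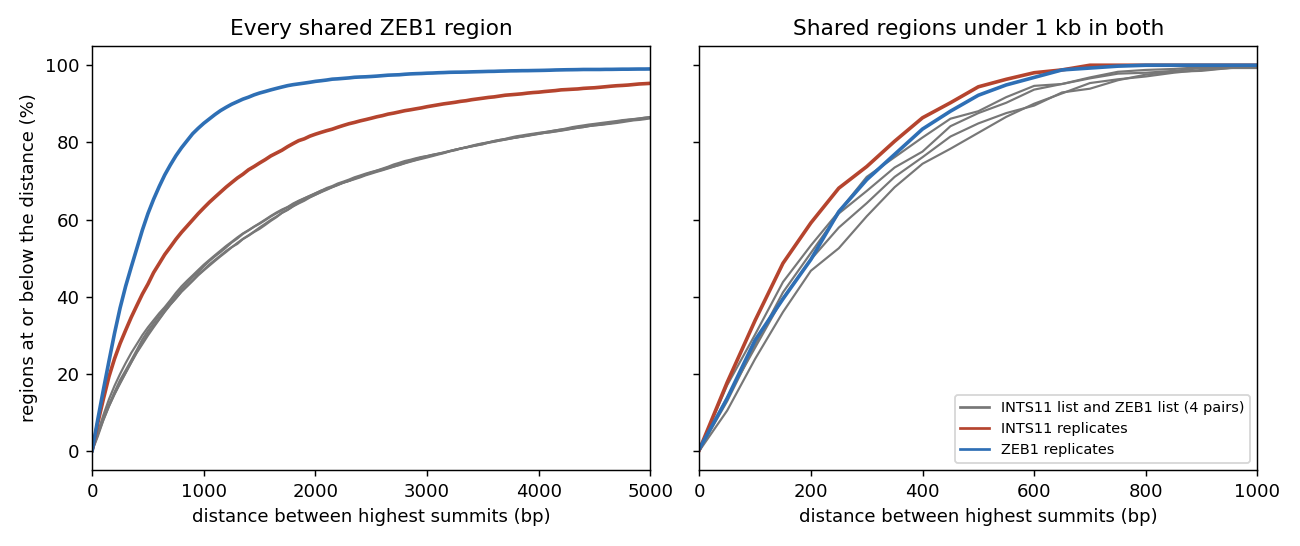
Cumulative share of shared regions (y axis, %) by the distance between the highest summits of a pair of lists (x axis, bp), for every shared ZEB1 region on the left and for the 411 under 1 kb in both proteins on the right. Grey lines are the 4 pairs of an INTS11 and a ZEB1 list, and coloured lines the replicate pairs; the INTS11 replicate line on the left rests on 9298 shared INTS11 regions and the other lines there on 13432 shared ZEB1 regions. The grey lines lie below both replicate lines on the left and near them on the right.

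Other Integrator and partner proteins were more often present where INTS11 and ZEB1 met. INTS13, another Integrator subunit, lay at 93.6% of INTS11 regions with ZEB1 and 82.6% of those without. It lay at 93.8% of ZEB1 regions with INTS11 and 63.5% of those without. ZNF609, a zinc finger protein, lay at 46.8% of INTS11 regions with ZEB1 and 5.65% without, and at 43.1% of ZEB1 regions with INTS11 and 7.41% without. HDGF, a chromatin-associated growth factor, lay at 52.3% and 21.5% of INTS11 regions with and without ZEB1, and at 50.6% and 16.9% of ZEB1 regions with and without INTS11. The INTS13 difference of 11.0 points at INTS11 regions was 24.5 points without INTS11 replicate 1 and 25.5 points without INTS11 replicate 2. The INTS13 difference of 30.3 points at ZEB1 regions was 20.1 points without INTS11 replicate 1. The ZNF609 difference of 41.1 points at INTS11 regions was 24.5 points without ZEB1 replicate 2. The other differences moved by less than 1.5 times when a list was left out.

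At equal width the difference for INTS13 at INTS11 regions was small. Among regions of 600 to 1000 bp, a class chosen after seeing the data, INTS13 lay at 74.9% of 810 INTS11 regions with ZEB1 and 73.8% of 13392 without. At ZEB1 regions of that width it lay at 89.9% of 3539 with INTS11 and 63.6% of 819 without. ZNF609 lay at 25.4% and 3.17% of such INTS11 regions with and without ZEB1, and at 26.3% and 6.35% of such ZEB1 regions with and without INTS11.

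The classes were spread unevenly over chromosomes. Chromosome 13 held 37.3% of INTS11 regions with ZEB1 and 6.52% of those without, and 37.5% of ZEB1 regions with INTS11 and 19.3% of those without. Chromosome 1 held 35.9% of INTS11 regions with ZEB1 and 30.2% of those without. It held 38.8% of ZEB1 regions with INTS11 and 28.5% of those without. Chromosome 6 ran the other way, with 0.502% of INTS11 regions with ZEB1 and 6.89% of those without. On chromosome 13, 57.6% of INTS11 regions met ZEB1, on chromosome 16 28.3%, on chromosome 18 27.6% and on chromosome 6 1.70%. With chromosome 13 left out, 13.8% of INTS11 regions met ZEB1 and 87.0% of ZEB1 regions met INTS11.

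**Figure D4:**
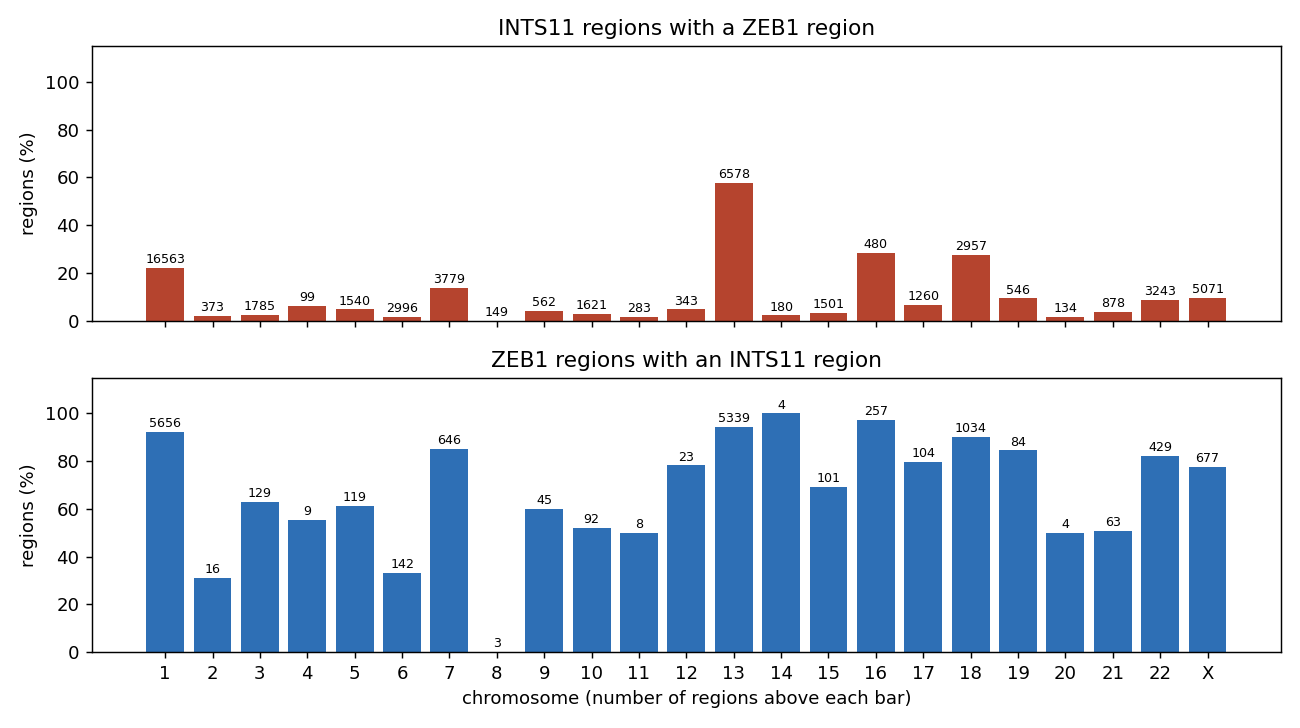
Share of INTS11 regions that meet ZEB1 (upper panel, %) and of ZEB1 regions that meet INTS11 (lower panel, %) on each chromosome (x axis), with the number of regions above each bar. The INTS11 share is highest on chromosome 13 at 57.6%, and the ZEB1 bars of chromosomes 2, 4, 8, 11, 14 and 20 rest on 16 regions or fewer.

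The highest shared regions lay far from protein-coding genes. The top ZEB1 region with INTS11 spans chr13:62080905-62191225, 110321 bp long, and overlaps no gene in the table. Its highest peaks had folds of 10.9 and 11.0 in the INTS11 lists and 12.7 and 10.4 in the ZEB1 lists. The nearest protein-coding gene is PCDH20, a protocadherin gene 665055 bp away. The 5 highest shared regions all lie between that region and chr13:61743797-61961236, which at 217440 bp is the widest ZEB1 region. Outside dense bins, 3 of the 5 highest lie around TLE4 on chromosome 9, including chr9:79363817-79444568 with folds of 5.51 and 5.84 for INTS11 and 6.02 and 6.24 for ZEB1.

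The highest unshared regions were narrower and lower. Among ZEB1 regions without INTS11 the top one was chr13:86716787-86717457, 671 bp wide, with folds of 3.40 and 3.82. Among INTS11 regions without ZEB1 the top one was chr1:16777482-16778224, 743 bp wide, with folds of 3.72 and 4.18. A ZEB1 region in the SLC5A10 gene, which encodes a sugar transporter, had folds of 3.40 and 3.44, and an INTS11 region in FHOD3, a formin gene, had folds of 3.72 and 3.54. Each of these stood far below the top shared folds in the same lists.

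Relative to genes, shared regions were somewhat more often at a gene end, meaning within 1 kb of either end. INTS11 regions lay at a gene end in 15.97% with ZEB1 and 12.5% without. ZEB1 regions did so in 11.5% with INTS11 and 7.99% without. The INTS11 difference of 3.50 points was 0.898 points without INTS11 replicate 2 and 1.64 points without ZEB1 replicate 1. The ZEB1 difference of 3.56 points was 1.49 points without INTS11 replicate 1, 5.42 without INTS11 replicate 2, 1.70 without ZEB1 replicate 1 and 0.830 without ZEB1 replicate 2. Gene bodies held 45.8% and 55.0% of INTS11 regions with and without ZEB1, and 48.3% and 54.8% of ZEB1 regions with and without INTS11. Among regions of 600 to 1000 bp the order at gene ends was turned round for INTS11, with 5.56% with ZEB1 and 9.80% without, and kept for ZEB1, with 9.07% with INTS11 and 7.33% without.

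Over the 19974 protein-coding genes, 3485 had INTS11 at an end (17.4%), 756 had ZEB1 (3.78%) and 712 had both (3.56%). INTS11 alone was at 2773 genes and ZEB1 alone at 44. Of the genes with ZEB1, 94.2% had INTS11, against 14.4% of the genes without ZEB1. Dense bins held 730 of the 756 genes with ZEB1, and there these shares were 95.8% and 49.1%. Without ZEB1 replicate 1 the count with both was 1212, and without ZEB1 replicate 2 it was 1769. Outside dense bins 15445 genes gave 919 with INTS11 (5.95%), 26 with ZEB1 (0.168%) and 13 with both (0.0842%). There INTS11 was at 50% of the genes with ZEB1 and at 5.88% of those without. Genes next to each other can share a region and are not independent.

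Genes with both proteins and the highest ranks were led by TLE4, which encodes a Groucho-family corepressor. Its highest peaks had folds of 6.82 and 5.63 in the INTS11 lists and 5.70 and 6.11 in the ZEB1 lists, and the INTS11 region there was 77447 bp wide and the ZEB1 region 195035 bp. NBPF1, of the neuroblastoma breakpoint family, had folds of 7.03 and 5.41 for INTS11 and 6.35 and 5.73 for ZEB1. This family has many near-identical copies, so reads there may be split among them. PCDH9, a protocadherin gene, had folds of 5.24 and 4.47 for INTS11 and 4.60 and 5.48 for ZEB1. The others were GPRIN2, EPHX1, KCNJ4, KDELR3, ANO8, GTPBP3 and TMEM184B, with folds between 3.61 and 4.75 for INTS11 and between 3.82 and 4.84 for ZEB1. The highest INTS11 and ZEB1 regions of PCDH9 and of EPHX1 did not meet each other, though other regions at their ends did. Over all 712 genes with both proteins, regions at the ends met in 660 (92.7%). Among the 10, KCNJ4 and KDELR3 share their regions, as do ANO8 and GTPBP3.

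Among genes with INTS11 and no ZEB1, the highest were PHACTR4, a phosphatase and actin regulator, with folds of 3.58 and 3.61, and GTF3C6, a subunit of the RNA polymerase III factor TFIIIC, with 3.38 and 3.68. The GTF3C6 region was narrow, at 945 bp, whereas that of PHACTR4 was 11647 bp wide. NVL, a nuclear ATPase of ribosome assembly, had folds of 3.31 and 3.46, and ACOT11, an acyl-CoA thioesterase, 3.58 and 3.25. Among the others were H2BW1, FBXL19, MYO15A, TAF5L and COX20, with folds between 3.17 and 3.58. All 10 lay in dense bins. A further 10 genes with INTS11 alone outside dense bins, led by ERVV-1 and MAPKAP1, were added after seeing values. Without ZEB1 replicate 2, only 6 of these 20 genes kept that class. ZEB1 replicate 1 has a peak at the others, and at 13.3% of all protein-coding genes.

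The 10 highest genes with ZEB1 and no INTS11 had ZEB1 folds below those of the 10 highest genes with both proteins, in regions of 463 to 1093 bp. The former were taken from 44 genes and the latter from 712, with ZEB1 percentiles used in both rankings. The folds of the 2 sets therefore do not compare the classes as a whole. KMT5B, a histone H4 lysine methyltransferase gene outside dense bins, had ZEB1 folds of 2.85 and 2.93 in a region of 708 bp. GFY and PTH2, PTH2 encoding a neuropeptide, share a region of 463 bp with folds of 3.29 and 2.93. EME2, MRPS34 and NME3 share a region of 733 bp with folds of 2.63 and 3.31. ANP32A, PPM1M, LRRC7 and DESI1 completed the 10 highest, with folds between 2.63 and 3.07. Without INTS11 replicate 2, only 1 of the 22 genes named with ZEB1 alone kept that class. INTS11 replicate 1 has a peak at the rest, and at 50.02% of all protein-coding genes.

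All 26 protein-coding genes with ZEB1 outside dense bins can be listed. The 13 with both proteins were TLE4, GPRIN2, TCAF1, STX4, FUOM, STK25, PTPN13, ZMYM1, P3H4, ERVV-2, CLBA1, ASPHD2 and SAMD11. GPRIN2 had folds of 4.75 and 4.47 for INTS11 and 4.49 and 4.84 for ZEB1, and STX4, a SNARE protein of membrane fusion, had 3.51 and 3.75 for INTS11 and 3.29 and 3.31 for ZEB1. STK25, a protein kinase, had 3.72 and 2.53 for INTS11 and 2.96 and 2.80 for ZEB1. SAMD11 was the lowest in the ZEB1 lists, with 2.34 and 2.02 for INTS11 and 2.19 and 2.42 for ZEB1. The regions at the ends met each other in 11 of the 13. In ASPHD2 and SAMD11 they did not meet, and the INTS11 region lay at the opposite end of the gene from the ZEB1 region.

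The 13 with ZEB1 alone were KMT5B, SH2B2, C20orf144, MAFK, SNAI3, TPD52L2, PLEKHA1, HPS4, PLCD4, SMIM10L2A, DYNC1LI2, NOC2L and RAB10. SNAI3, a zinc finger repressor of the Snail family, had ZEB1 folds of 2.74 and 2.29, and MAFK, a small Maf factor, 2.52 and 2.55. Their ZEB1 regions were between 430 and 759 bp wide. The region at NOC2L also counts for SAMD11, and that at HPS4 also counts for ASPHD2, and both of those other genes have INTS11 as well.

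**Figure D5:**
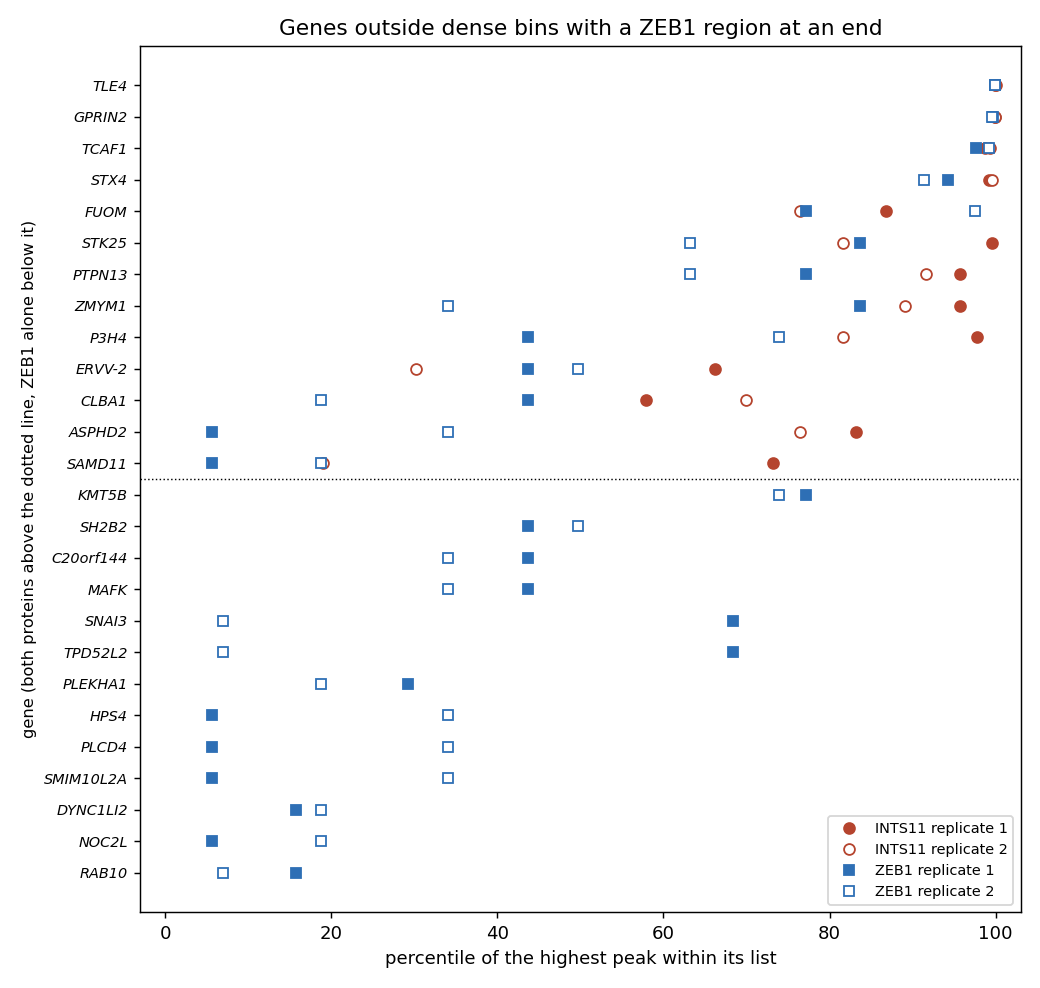
Percentile of the highest peak within its list (x axis) for each of the 26 protein-coding genes outside dense bins with a ZEB1 region at an end (y axis), with circles for the INTS11 lists and squares for the ZEB1 lists, filled for replicate 1 and open for replicate 2. Genes with both proteins are above the dotted line; TLE4 and GPRIN2 lie at the right edge in all 4 lists, and genes with ZEB1 alone have squares only.

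Lists of genes were read against the 17.4% of protein-coding genes with INTS11 and the 3.78% with ZEB1. Of 45 epithelial genes that ZEB1 is known to repress, 9 had INTS11 and 2 had ZEB1. Both proteins were at CGN, a tight junction protein gene, with folds of 2.62 and 2.89 for INTS11 and 2.41 and 2.93 for ZEB1. INTS11 alone was at EPCAM, PATJ, GRHL1, PKP3, RAB25, ELF3 and JUP. The E-cadherin gene CDH1, CRB3, ESRP1 and the genes of the miR-200 family had neither reproducible region.

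Single lists add a little at those epithelial genes. ZEB1 replicate 1 had a peak at 14 of the 45 and ZEB1 replicate 2 at 3, against 13.3% and 8.48% of protein-coding genes. At MIR200A and MIR200B, ESRP1, ESRP2 and EPCAM, ZEB1 replicate 1 had a peak and replicate 2 had none. INTS11 replicate 1 had a peak at 26 of the 45 and INTS11 replicate 2 at 11, against 50.02% and 22.2% of protein-coding genes. At CDH1, INTS11 replicate 1 alone had a peak.

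Other genes linked to ZEB1 were read in the same way. Of 31 mesenchymal, TGF-beta and YAP pathway genes, 1 had INTS11, the matricellular gene CCN1, and 0 had ZEB1, also in each ZEB1 list by itself. Of 13 corepressor and cofactor genes, INTS11 was at 2 (15.4%) and ZEB1 at 1 (7.69%). HDAC1, a histone deacetylase gene, had both, with folds of 3.31 and 3.25 for INTS11 and 2.85 and 3.06 for ZEB1, and USP7 had INTS11 alone.

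No reproducible ZEB1 region lay at the genes tied to Integrator, in lists too short for a count of 0 to differ clearly from the 3.78% of all protein-coding genes. Among 22 genes of Integrator subunits and its phosphatase, INTS11 was at INTS14 and INTS6L and ZEB1 at 0. Of 17 small nuclear RNA genes, the classic substrates of Integrator, INTS11 was at RNU4-2, RNU5B-1 and RNU11, and ZEB1 at 0. At RNU11 the INTS11 folds were 3.86 and 3.25. Among 28 pausing and termination genes INTS11 was at HEXIM1, MEPCE, CPSF1 and CPSF3, and ZEB1 at 0. For small nuclear RNA genes the share over all genes of the table is the better background, at 12.3% with INTS11 and 2.99% with ZEB1. In single lists, ZEB1 replicates 1 and 2 had a peak at 2 and 0 of the 22 Integrator genes. They had a peak at 2 and 1 of the 17 small nuclear RNA genes, and at 3 and 2 of the 28 pausing genes. Over all protein-coding genes those lists had a peak at 13.3% and 8.48%, and over all genes at 9.13% and 6.52%.

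Immediate early genes and sterol genes carried both proteins at a few members. Of 33 immediate early genes 9 had INTS11 (27.3%) and 2 had ZEB1 (6.06%), against 17.4% and 3.78% of all protein-coding genes. JUN, a subunit of AP-1, had folds of 2.82 and 2.38 for INTS11 and 2.96 and 2.80 for ZEB1, and ATF3 had 3.10 and 2.81 for INTS11 and 2.19 and 2.80 for ZEB1. Of 20 cholesterol synthesis genes 5 had INTS11 (25%) and 4 had ZEB1 (20%). FDPS, the farnesyl diphosphate synthase gene, had folds of 2.89 and 2.74 for INTS11 and 2.52 and 2.93 for ZEB1, and LSS, the lanosterol synthase gene, had 2.82 and 2.60 for INTS11 and 2.19 and 2.93 for ZEB1. Dense bins hold 12 of the 33 immediate early genes and 7 of the 20 sterol genes. Of all protein-coding genes in dense bins, 56.7% had INTS11 and 16.1% had ZEB1. All 5 sterol genes and all 9 immediate early genes with INTS11 lie in dense bins, and the part of position in these counts was not tested.

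The remaining lists set the range. Of 79 cytosolic ribosomal protein genes 27 had INTS11 (34.2%) and 4 had ZEB1 (5.06%), with ZEB1 at RPS27, RPL15, RPS2 and RPL3. Of 390 olfactory receptor genes, which are silent in most tissues, 7 had INTS11 (1.79%) and 0 had ZEB1. Of 20 liver and erythroid genes 3 had INTS11 and 1, TTR, had both, with folds of 3.10 and 3.17 for INTS11 and 2.74 and 3.06 for ZEB1.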

How the data were processed

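ChIP-seq peak lists of INTS11 and ZEB1 from HEK293T cells were compared, with 2 libraries per protein and groups taken from the sample titles. Per the submitters' processing notes, the tools were MACS2, Picard, Bowtie, Trimmomatic and FastQC. Their versions, the caller's thresholds and control, and the build were not given in the sources used here. Each library has its own list as the authors deposited it, so replicates were not pooled. The deposited fold is a linear ratio of summit to background, and the deposited p and q values are −log10 transformed. The score that the authors deposited is a whole number made from the q value. These are the authors' values for each peak and were used only to rank, filter or describe peaks within a list. The other deposited columns give the summit offset. GRCh38 was inferred from contig names, and coordinates count from 1.

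Regions, overlaps, ranks and gene windows were computed on chromosomes 1 to 22 and X with Python 3.11.15, numpy 2.4.6, pandas 2.3.3 and scipy 1.17.1, and figures with matplotlib 3.10.9. The code was tested on simulated data. Genes and promoters came from NCBI RefSeq tables. A gene counted as bound where a region lay within 1 kb of either end. The members, gene lists and dense bins were chosen with earlier results of these data known. Genes named are the 10 of each class with the highest mean percentile, all with ZEB1 outside dense bins, and list members that carry either protein, a few of which are not reported here; the genes with INTS11 alone outside dense bins were added after seeing values. Shares and medians carry no test, since regions of 4 libraries are not replicates. Median peak width has 1 value per library and was tested by exact permutation. Alternatives left out each list, changed the overlap rule, the q threshold, list length, peak width, gene window or part of the genome used. No genome sequence was used, so regions were not searched for motifs.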

Additional observations from a re-analysis of the deposited data

Results flagged for a closer look

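Peaks outside the chromosomes analysed were present in all 4 lists. INTS11 replicates 1 and 2 had 46 and 33 peaks on other contigs, and ZEB1 replicates 1 and 2 had 15 and 8. Each count lies above 3, the limit that a count of 0 allows, and no control list was used here. There were 5 contigs with a peak in all 4 lists. These peaks entered no comparison above, and the limit covers counting error only.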

How the results depend on the processing

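Directions of the width ratios, height differences and median peak width held under every alternative run; sizes did not. The share of INTS11 regions with ZEB1 was 13.7% with peaks of -log10 q of 5 or more, 41.0% with the 10000 top peaks, 7.98% with 250 bp either side of summits, 2.08% outside dense bins, 3.44% outside bins dense in the 6 other lists, 13.8% without chromosome 13 and 2.03% with bins next to dense ones also removed. In the same order the share of ZEB1 regions with INTS11 was 96.9%, 76.8%, 28.4%, 46.4% and 54.5%, and 48.2% with neighbouring bins removed. Leaving out a list gave 7.23% to 39.1% for INTS11 and 61.3% to 93.8% for ZEB1.

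The INTS11 width ratio was 2.64 with an overlap of 50%, 1.89 with top peaks and 2.08 outside bins dense in the other lists, and 2.03 to 3.23 without a list. The ZEB1 ratio was 1.51 with 50% overlap, 1.57 with a summit inside, 3.20 with the q threshold, 1.85 with top peaks and 1.52 outside bins dense in the other lists, and 1.47 to 1.68 without a list. Height differences for INTS11 were 38.2 points with the q threshold, 39.1 outside dense bins, 36.7 outside bins dense in the other lists, 14.4 for peaks of 400 to 600 bp and 23.05 with mean percentiles, and 22.3 to 45.1 without a list. For ZEB1 they were 37.9, 32.3, 27.0, 14.6 and 19.4 under those settings, 33.7 with top peaks, and 19.1 to 29.2 without a list. The ZEB1 value was exactly as reported without INTS11 replicate 1, with 50% overlap and with the highest peak per region, because folds are tied, so that identity shows no stability.

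Summit distance was 3042 bp with the q threshold, 730 bp outside dense bins and 200.5 bp in regions under 1 kb, and 624.5 to 920.5 bp without a list. Genes with both proteins numbered 45 with the q threshold, 176 with top peaks and 13 outside dense bins, and 712 became 716 to 1769 without a list. Genes with ZEB1 had INTS11 in 50% outside dense bins, and in 66.6% to 99.6% without a list. ZEB1 regions outside genes changed sign, with minus without INTS11, to -3.97 points outside dense bins and to -1.39 points without INTS11 replicate 2, and was -1.39 to 6.43 points over the lists left out. The replicate block left the median width difference at 27 bp, with an exact sign-flip p of 0.5, the smallest it can give, and 24.5 to 29.5 bp without a list; nothing in the labels pairs the numbers. The causes were not tested.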
